A study of Pan troglodytes with 38 samples.

Results

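The 9 genes described here carry iron into, through and out of cells: *FTH1* and *FTL* (iron storage), *TFRC* and *SLC11A2* (uptake), *SLC40A1* and *HAMP* (export and its hormonal control), *HMOX1* (heme breakdown), and *ACO1* and *IREB2* (the sensors of cellular iron). They were taken by gene symbol, and each matched 1 of the 31373 annotated genes in the chimpanzee count table. The samples were post-mortem hearts of 38 chimpanzees (*Pan troglodytes*), 1 polyA RNA library per animal. GEO's labels name no treatment, but the study says that some animals kept at laboratories had earlier been given hepatitis B or C virus, a status not used here, and its part in any result was not tested. The labels place all the animals in 1 group and name no chamber, so the comparisons below are among animals, and by covariates in the study's sample table: the year the RNA was extracted (an earlier year in 17 animals, 2018 in 21), RNA integrity number (RIN, 2.5 to 8.4), age at death (10 to 57 years, given for 34 animals) and sex (22 females, 16 males). Extraction year cannot be told apart from whether a library was newly made, and some of these captive animals were relatives, so they are not fully independent. The human libraries of the study were not analysed here, and no comparison of species was made.

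As background, a cell takes up iron from circulating transferrin by the transferrin receptor (*TFRC*) and moves it across the endosomal membrane with the transporter DMT1 (*SLC11A2*). It stores the surplus in ferritin, a shell of heavy (*FTH1*) and light (*FTL*) chains, and exports it through ferroportin (*SLC40A1*), which the peptide hormone hepcidin (*HAMP*) removes from the cell surface. The iron regulatory proteins, encoded by *ACO1* and *IREB2*, bind hairpins in several of these transcripts when iron is scarce, which holds back the translation of ferritin and protects the *TFRC* transcript from decay. Heme oxygenase 1 (*HMOX1*) opens the heme ring and frees its iron, a task for which macrophages that clear red cells are best known. Heart muscle needs iron for myoglobin and for the respiratory chain.

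Libraries held 43892814 to 132478050 counts on annotated genes and 14408012 to 81603350 on orthologous exons. Levels are given in CPM, the annotated gene count per 1000000 counts of the library's orthologous exon total, with no correction for gene length, so they compare animals within a gene and not one gene with another. Genes of the mitochondrial genome took 17.2% to 60.1% of annotated counts. Transcripts of cardiomyocytes, the contracting cells of the heart, were abundant in every library. The mean log2(CPM + 0.5) over 9 of their markers had a median of 12.17 and was lowest in the animals Little_R, at 9.61, and 537, at 9.93. In the animal 549 the markers of the ventricle were low and those of the atrium high, as described with *HAMP* below. Where a call described below was lost without 537 and Little_R, or without 549, the value without them is given.

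Among the storage genes, *FTH1* varied little and *FTL* a great deal. The heavy chain gene *FTH1* ranged from 1378 CPM in the animal 503 to 3955 CPM in 676, with a median of 1903 CPM and a mean of 1982 ± 502 (SD, n = 38). The animals 676 and 724, the latter at 3387 CPM, stood apart from the next one, 549, at 2378 CPM. The light chain gene *FTL* ranged from 264 CPM, again in 503, to 2533 CPM in 495, with a median of 664 CPM and a mean of 846 ± 508 (SD, n = 38). It was next highest in 537, at 2092 CPM, and in Little_R, at 1855 CPM. The highest animal was 9.61 times the lowest for *FTL* and 2.87 times for *FTH1*. The span of *FTL* was narrower with TMM library sizes, from 179 to 1078 CPM, against 735 to 2125 CPM for *FTH1*. Mitochondrial genes took 45.3% of counts in 495, 60.1% in 537 and 48.3% in Little_R, against a median of 30.4%. The part of this share in the *FTL* level was not tested. The ratio of *FTL* to *FTH1* counts within an animal, which depends on the lengths of both genes and so has a meaning only between animals, had a median of 0.352. It ran from 0.191 in 503 to 1.10 in 495, a 5.72-fold span, and exceeded 1 in 2 animals, 495 and 537. Both ferritin genes have many processed copies in primate genomes, and reads that match a copy equally well are not counted in this counting mode, so their absolute counts are uncertain.

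The uptake gene *TFRC* had a wide and skewed spread. Its lowest animal was Little_R, at 8.81 CPM, its median was 48.0 CPM and its highest was MD_And, at 217 CPM. The animals 95A014, at 211 CPM, and 4X0212, at 201 CPM, were close behind the highest. The mean was 69.55 ± 54.4 CPM (SD, n = 38), and the high animals came from both extraction years. The other uptake gene, *SLC11A2*, stayed within 4.99 CPM in 4X0339 and 29.7 CPM in 570, with a median of 17.2 CPM and a mean of 18.2 ± 6.04 (SD, n = 38). *SLC11A2* depended on the gene model. Its median was 45.7 CPM when counted on orthologous exons, and the animals' log2 values in the 2 count tables correlated with r = 0.60, against r = 0.997 for *IREB2* (n = 38 libraries, the same reads counted in 2 ways).

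*SLC40A1*, the exporter, had a median of 114 CPM and a mean of 146 ± 111 (SD, n = 38). Its lowest value was 33.997 CPM in 529. Its highest values were 593 CPM in 495, 490 CPM in 570 and 341 CPM in 338, which were set off from the remaining 35 animals, all at or below 254 CPM. The heme oxygenase gene *HMOX1* ranged from 1.38 CPM in 503 through a median of 6.53 CPM to 38.9 CPM in 4x523, with a mean of 9.69 ± 9.30 (SD, n = 38). It was also high in 4x0430, at 37.4 CPM, Little_R, at 27.9 CPM, and 338, at 26.1 CPM. The animal 503 had the lowest level of all 38 for *FTH1*, *FTL* and *HMOX1* alike.

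The sensors had the smallest relative spread of the 9 genes on this scale. *ACO1*, whose product is an aconitase when iron is plentiful, ranged from 42.5 CPM in 4X0354 to 131 CPM in 95A014, with a median of 98.7 CPM and a mean of 98.9 ± 21.3 (SD, n = 38). *IREB2* ranged from 24.01 CPM in Little_R to 65.2 CPM in 338, with a median of 45.6 CPM and a mean of 45.5 ± 8.30 (SD, n = 38). The coefficient of variation over animals was 18.3% for *IREB2* and 21.5% for *ACO1*, compared with 25.3% for *FTH1*, 33.1% for *SLC11A2*, 60.0% for *FTL*, 75.9% for *SLC40A1*, 78.2% for *TFRC* and 96.0% for *HMOX1*. With TMM library sizes the order changed among the steadiest, with *IREB2* at 21.6%, *FTH1* at 25.97% and *ACO1* at 26.9%.

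An exon length, given for orthologous exons alone, could be matched only to *SLC11A2* and *IREB2*, whose gene identifiers the study pairs. On orthologous exons of 8999 and 7342 bases, RPKM values (reads scaled to exon length and library total) had medians of 5.07 for *SLC11A2* and 6.26 for *IREB2*. The level of *IREB2* was higher than that of *SLC11A2* by 0.26 ± 0.34 (SD) on the log2 scale and in 30 of the 38 animals (two-sided paired permutation test, p = 9e-05, 100000 resamples). The test measures the spread between animals and not the choice of gene model. Under the 2 models the *SLC11A2* median was 17.2 or 45.7 CPM.

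*HAMP* was close to undetected in most hearts and high in 1. This hormone gene is best known from the liver, and it is also transcribed in heart muscle. Its count was 20 or fewer in 31 of the 38 animals, the median was 0.249 CPM from a median count of 10, and 4X0354 had 0 counts, which allows up to 0.151 CPM at this depth by counting error alone. In the animal 549 it reached 51.9 CPM from 2451 counts. The next animals were 570, at 8.02 CPM, 4x0025, at 3.83 CPM, and 529, at 1.95 CPM. The heart of 549 was thus 6.47 times the next one and 208 times the median. The coefficient of variation of *HAMP* over all 38 animals was 421%.

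In 549, the animal with the highest *HAMP*, the markers of the 2 chambers also stood apart. The mean log2(CPM + 0.5) over 7 atrial markers was 9.12 there, the highest of 38 animals, against a median of 3.82, and over 5 ventricular markers it was 5.46, the lowest, against a median of 10.44. *NPPA*, the atrial natriuretic peptide gene, stood at 21020 CPM against a median of 58.1 CPM. *MYL2*, the ventricular light chain gene, stood at 315 CPM against a median of 12455 CPM. *HJV*, which encodes a bone morphogenetic protein coreceptor that drives hepcidin transcription in the liver, was also highest in 549, at 449 CPM against a median of 180 CPM. The mean over 6 hepatocyte markers was 1.46 in 549, against a median of 0.961 and a range of 0.399 to 3.40, the highest being in 529. Of these markers, *APOA1* (apolipoprotein A-I) was at 189 CPM in 549 against a median of 94.1 CPM, *ALB* (albumin) at 0.699 against 0.170 CPM and *AHSG* (fetuin) at 0.254 CPM against a median of 0. *ALB* was at 5.69 CPM in 570 and 30.4 CPM in 529, its highest animal. In 570, the second *HAMP* animal, *NPPA* was at 19.1 CPM and *MYL2* at 3939 CPM, and the mean over 9 interleukin-6 and acute phase genes was the highest of 38 animals, at 4.53 against a median of 1.89. Correlations of *HAMP* with these marker lists are given below. Whether chamber, liver transcripts or inflammation had a part in the *HAMP* level was not tested.

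**Figure D1:**
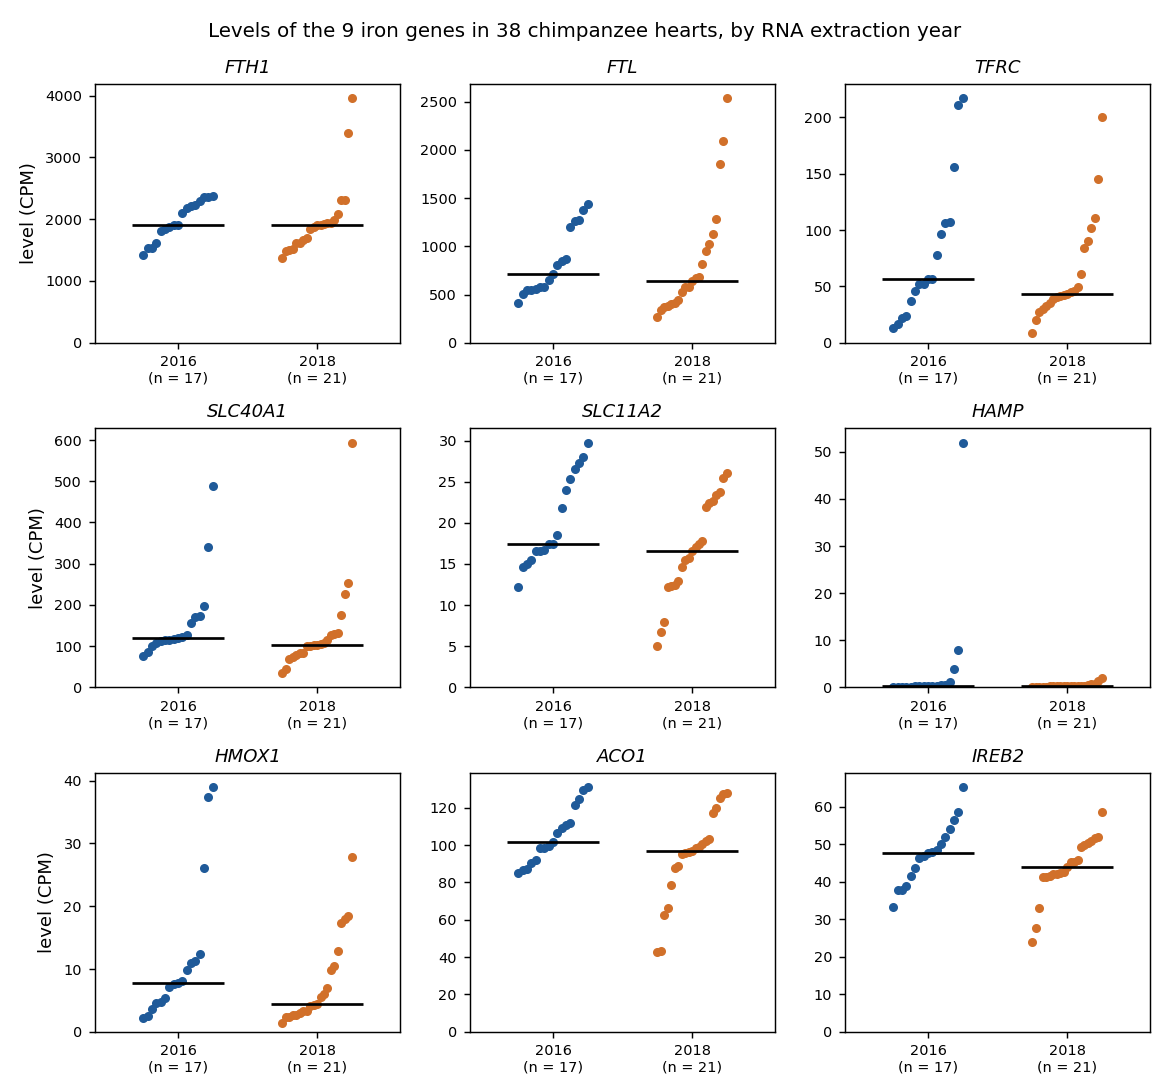
Level of each of the 9 iron genes in CPM (linear axis from 0) in every animal, split by RNA extraction year (the earlier year, 17 animals, blue; 2018, 21 animals, orange), with the median as a black line. The years overlap for all 9 genes, *FTL*, *TFRC*, *SLC40A1* and *HMOX1* have long upper tails, and *HAMP* rests on the animal 549 at 51.9 CPM.

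Dispersion set this variability against that of genes of similar level. It is the residual of the natural log of a gene's negative binomial overdispersion from a smooth trend on mean level, so that 0 is the trend and positive values are more variable than similarly expressed genes. Of all 13121 expressed genes, 44.9% lay above 0, with a median of -0.117 and an SD of 0.924, and 5 of the 9 iron genes did. These were *TFRC* at 1.69 ± 0.193 (SE over 38 animals), *HAMP* at 1.61 ± 1.10, *SLC40A1* at 1.28 ± 0.328, *HMOX1* at 1.24 ± 0.236 and *FTL* at 0.998 ± 0.196. *HAMP* reached the 6 CPM that a gene needed in at least 1 animal only in 549 (51.9 CPM) and 570 (8.02 CPM). It thus entered the ranking only through animals where it was high, and its place above 0 says little. Only 4.45% of expressed genes ranked above *TFRC*, and 14.1% above *FTL*.

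The sensor genes and *FTH1* lay below the trend. *IREB2* was at -1.06 ± 0.299, with 87.8% of expressed genes ranked above it, *FTH1* at -0.868 ± 0.354 and *ACO1* at -0.528 ± 0.371. *SLC11A2*, at -0.0856 ± 0.271, sat on the trend within its error. The 2 ferritin chains thus lay on opposite sides of the trend, each by more than its SE. On other library totals *FTL* came closer to it, at 0.310 with the annotated gene total and 0.349 with TMM, and *IREB2* was at -0.190 and -0.609. Without 549, *HAMP* fell to -0.00924, and the count above 0 was 4 of 9. *SLC40A1* was 0.998 without 495, and *FTH1* was -1.23 without 676. Over the 48 other genes of an iron pathway list, 42 were expressed and 25 of them (59.5%) lay above 0, with a median of 0.248.

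**Figure D2:**
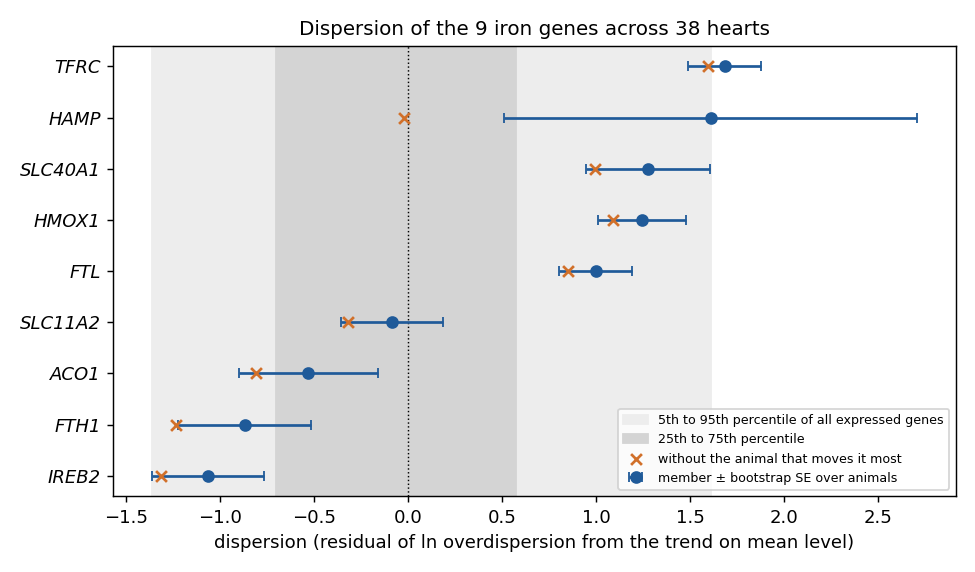
Dispersion of the 9 iron genes over 38 hearts (horizontal axis, natural log units; 0 is the trend for genes of similar level). Points and bars are the estimate ± SE over animals, crosses the value without the animal that moves it most, and the grey bands span the 5th to 95th and 25th to 75th percentiles of all expressed genes. *TFRC*, *SLC40A1*, *HMOX1* and *FTL* stay above 0 without any single animal, and *HAMP* does not.

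The iron genes were then compared with each other across animals. Of the 36 pairs, 9 passed a Benjamini-Hochberg adjusted p of 0.05 by Pearson's r, and all 9 also passed by Spearman's rho (two-sided permutation tests, 100000 resamples, n = 38). All values share the library total as denominator. The share of pairs of other expressed genes that would pass was not computed, so 9 of 36 cannot be called high or low for these hearts. The strongest pair was *FTL* with *HMOX1*, with r = 0.80 and rho = 0.79 (p = 1e-05 for each, the smallest possible, and adjusted p = 0.00036 in the permutation tests). That relation was as strong within both extraction years (r = 0.81 in the earlier year and 0.82 in 2018) and without the animals farthest from the median of *FTL*, 495 and 537 (r = 0.81). The heavy chain gene *FTH1* rose with the same pair less closely, with r = 0.46 and rho = 0.44 for *HMOX1* (permutation p = 0.0033 and adjusted p = 0.015 for r) and r = 0.42 and rho = 0.46 for *FTL* (permutation p = 0.0081 and adjusted p = 0.032 for r). Within years these were 0.25 in the earlier year and 0.60 in 2018 for *HMOX1*, and 0.39 and 0.43 for *FTL*.

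Among the exporter, *SLC11A2* and the sensors, every pair but *SLC40A1* with *ACO1* passed. That pair had r = 0.20 and rho = 0.091 (adjusted permutation p = 0.32 for r, n = 38). *SLC40A1* correlated with *IREB2* at r = 0.62 and rho = 0.57 (adjusted permutation p = 0.00072 for r), with r = 0.54 in the earlier year and 0.63 in 2018, and r = 0.74 without 495 and 570. *SLC11A2* correlated with *IREB2* at r = 0.61 and rho = 0.57 (adjusted permutation p = 0.0012 for r), with 0.67 in the earlier year and 0.56 in 2018. It correlated with *SLC40A1* at r = 0.48 and rho = 0.43 (adjusted permutation p = 0.015 for r), with 0.68 and 0.35. Relations with *ACO1* had a smaller r in size in the earlier libraries, a difference that was not tested. *SLC11A2* and *ACO1* had r = 0.61 and rho = 0.53 over all animals (adjusted permutation p = 0.0018 for r), 0.67 in 2018 and 0.15 in the earlier year. All relations of *SLC11A2* used the annotated gene model. They were not computed on orthologous exons, where its values correlated with these at only r = 0.60. *ACO1* and *IREB2* had r = 0.53 and rho = 0.40 (adjusted permutation p = 0.0077 for r), 0.57 in 2018 and 0.36 in the earlier year. That pair no longer passed without 537 and Little_R (r = 0.35, adjusted permutation p = 0.11, n = 36), nor in residuals after extraction year, RIN and mitochondrial share (r = 0.37, adjusted permutation p = 0.084, n = 38). *FTL* and *ACO1* were inversely related, with r = -0.53 and rho = -0.45 (adjusted permutation p = 0.0037 for r), -0.66 in 2018 and -0.28 in the earlier year. Without 537 and Little_R this pair no longer passed either (r = -0.39, adjusted permutation p = 0.060, n = 36).

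*TFRC*, the most dispersed of the 9, passed with none of the others on this library total. With TMM library sizes it passed with *FTL* (r = -0.42, adjusted permutation p = 0.036) and with *ACO1* (r = 0.40, adjusted permutation p = 0.046). On the first total its largest correlations were 0.31 with *ACO1* and -0.30 with *FTL* (adjusted permutation p = 0.17 for each, n = 38), and the first of these was 0.078 without Little_R and MD_And. *TFRC* and *SLC11A2*, both uptake genes, had r = 0.078 (adjusted permutation p = 0.72, n = 38). *HAMP* and *SLC40A1*, the hormone and its target, had r = 0.28 (adjusted permutation p = 0.20, n = 38), 0.46 in the earlier year and -0.055 in 2018. *HAMP* and *HMOX1* passed by rank alone, with rho = 0.53 (adjusted permutation p = 0.0052, n = 38) and r = 0.23 (adjusted p = 0.29).

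In the authors' own normalized values (37 animals, 8 of the 9 genes), which are forced to a normal distribution, 1 of 28 pairs passed. It was *FTL* with *HMOX1*, at r = 0.56 (adjusted permutation p = 0.014). With TMM library sizes, both *FTH1* relations no longer passed, at r = 0.20 with *HMOX1* and 0.071 with *FTL*. *FTL* with *IREB2* did pass with TMM, at r = -0.58 and rho = -0.55 (adjusted permutation p = 0.0006 for r). On the first total that pair had r = -0.24 (adjusted permutation p = 0.28). *FTL* with *ACO1* had r = -0.66 with TMM.

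**Figure D3:**
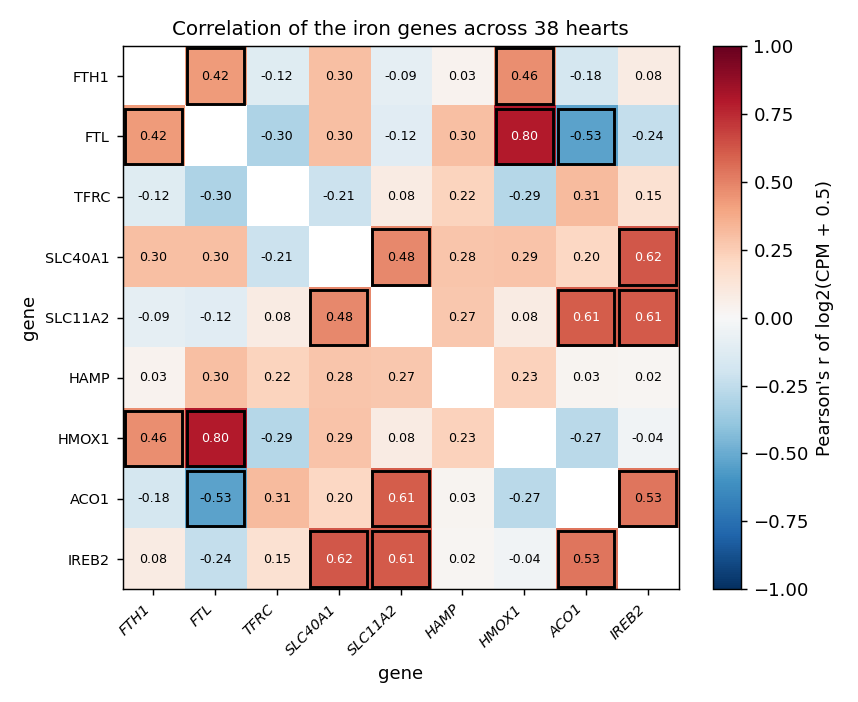
Pearson's r of log2(CPM + 0.5) for each pair of the 9 iron genes across 38 hearts, with black frames on the 9 pairs past an adjusted permutation p of 0.05. *FTL* and *HMOX1* have the highest value, 0.80, and no pair with *TFRC* or *HAMP* is framed.

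Levels were next set against marker lists of cell types and responses, each summarised as the mean log2(CPM + 0.5) of its genes. In bulk tissue, fewer cells of a type and less RNA per cell cannot be told apart. Of 99 pairs of a gene and a list, 21 passed an adjusted permutation p of 0.05 by Pearson's r, of which 8 belonged to *FTL* and 6 to *HMOX1*. The share over other expressed genes was not computed, so these counts have no background to be set against. *HMOX1* was higher in hearts with more macrophage transcripts, with r = 0.72 and rho = 0.68 over 12 markers (adjusted permutation p = 0.00033 for r). The relation was 0.81 in the earlier year, 0.64 in 2018 and 0.63 without 4x0430 and 338. The macrophage list was highest in 4x0430, at 6.37 against a median of 3.38, and lowest in 503, at 1.68, where *HMOX1* was also lowest. Little_R departed from this, with 27.9 CPM of *HMOX1* at a macrophage level of 3.10, under the median. *HMOX1* also rose with neutrophil and monocyte markers, at r = 0.68 and rho = 0.70 (adjusted permutation p = 0.00033 for r), with 0.56 in the earlier year and 0.74 in 2018.

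*FTL* fell where cardiomyocyte transcripts were high. Its r with the cardiomyocyte list was -0.77 and its rho -0.70 (adjusted permutation p = 0.00033 for r), with -0.60 in the earlier year, -0.85 in 2018 and -0.75 without Little_R and 537. It was higher with every list of non-muscle or immune cells that passed. The r was 0.63 with endothelial markers, 0.58 with fibroblast markers, 0.56 with neutrophil and monocyte markers and 0.54 with macrophage markers. Within years these were 0.36 in the earlier year and 0.71 in 2018, 0.36 and 0.66, 0.50 and 0.61, and 0.57 and 0.63. The r of *FTL* was 0.60 with interleukin-6 and acute phase genes (0.34 in the earlier year, 0.79 in 2018). With the BMP-SMAD response list, genes of bone morphogenetic protein signalling, it was 0.59 (adjusted permutation p = 0.0014). Within years this was 0.27 in the earlier year and 0.77 in 2018. *HMOX1* was likewise lower with more cardiomyocyte transcripts, at r = -0.61 and rho = -0.67 (adjusted permutation p = 0.00079 for r), with -0.48 in the earlier year and -0.80 in 2018.

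The exporter *SLC40A1*, which macrophages that recycle red cells express strongly, rose with macrophage markers at r = 0.50 and rho = 0.56 (adjusted permutation p = 0.0074 for r), with 0.40 in the earlier year and 0.53 in 2018, and passed with no other list. *IREB2* was lower with more red cell transcripts, at r = -0.54 and rho = -0.55 (adjusted permutation p = 0.0038 for r), with -0.48 in the earlier year and -0.54 in 2018. The r was -0.44 without 529 and MD_And, and *IREB2* passed with no list without 549, 570 and 529. *ACO1* was also lower with more red cell transcripts, at r = -0.45 and rho = -0.48 (adjusted permutation p = 0.023 for r). Its r was -0.61 in the earlier year, -0.38 in 2018 and -0.35 without 529 and MD_And. *ACO1* followed cardiomyocyte transcripts at r = 0.69 and rho = 0.50 (adjusted permutation p = 0.0014 for r), with 0.78 in 2018 and 0.011 in the earlier year, a difference that was not tested, and was 0.48 without Little_R and 537. With BMP-SMAD response genes *ACO1* had r = -0.62 and rho = -0.47 (adjusted permutation p = 0.00079 for r). That r was -0.79 in 2018, -0.16 in the earlier year and -0.62 without 549 and 537. *FTH1*, *TFRC* and *SLC11A2* passed with no list by Pearson's r, and *FTH1* passed by rank with macrophage markers (rho = 0.43, adjusted permutation p = 0.030) and with neutrophil and monocyte markers (rho = 0.43, adjusted permutation p = 0.032). Without 537 and Little_R, 4 of the 21 pairs no longer passed (n = 36). These were endothelial markers with *HMOX1* (r = 0.39, adjusted permutation p = 0.078) and with *ACO1* (r = -0.19, adjusted permutation p = 0.46), fibroblast markers with *HMOX1* (r = 0.37, adjusted permutation p = 0.093) and ventricular markers with *FTL* (r = -0.44, adjusted permutation p = 0.053).

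*HAMP* was lower with more ventricular transcripts, at r = -0.69 and rho = -0.43 (adjusted permutation p = 0.017 for r), with -0.87 in the earlier year and -0.11 in 2018. This rested on 549: without it r was -0.20 (adjusted permutation p = 0.36, n = 37). Without 549, *HAMP* instead passed with interleukin-6 and acute phase genes, at r = 0.62 and rho = 0.48 (adjusted permutation p = 0.0030 for r, n = 37), against r = 0.32 and rho = 0.41 over all 38. Without 549, 570 and 529 together r was 0.30 (adjusted permutation p = 0.19, n = 35). Atrial markers did not pass with *HAMP*, at r = 0.56 and rho = -0.0076 (adjusted permutation p = 0.069 for r, n = 38), and r was -0.085 without 549 and 554. With hepatocyte genes *HAMP* had r = 0.22 (adjusted permutation p = 0.32, n = 38). With BMP-SMAD response genes it had r = 0.16 and rho = -0.014 (adjusted permutation p = 0.56 for r, n = 38). That r was -0.11 without 549 and 537. The mean of the BMP-SMAD list was highest in 549, at 6.03 against a median of 4.72.

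**Figure D4:**
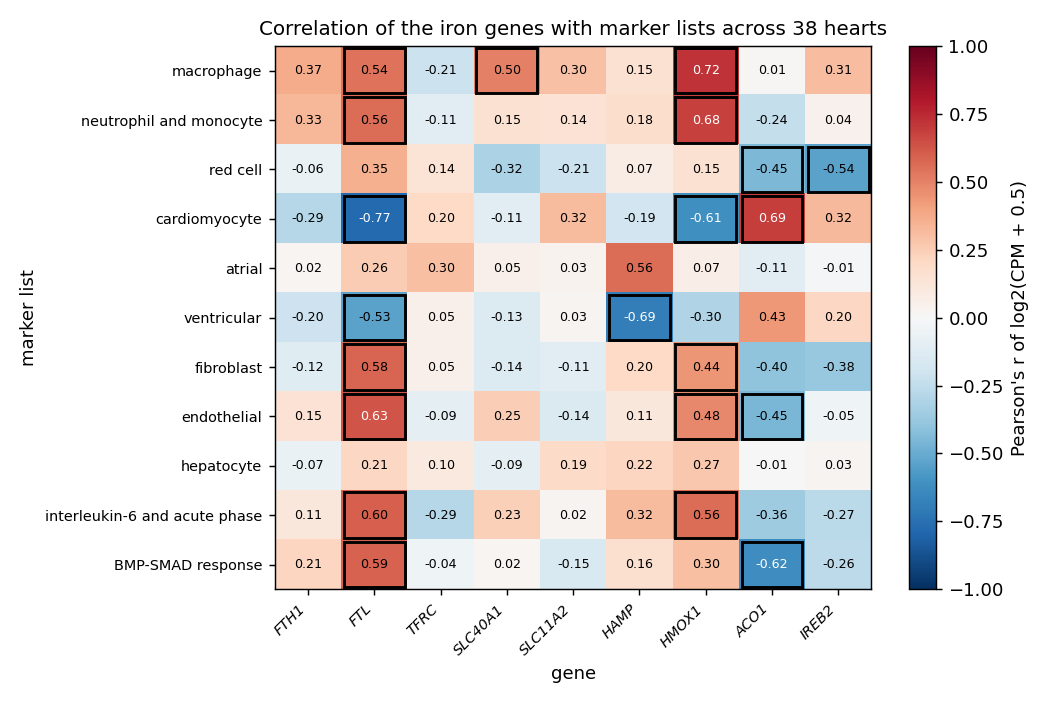
Pearson's r of log2(CPM + 0.5) between each of the 9 iron genes (columns) and the mean of each marker list (rows) across 38 hearts, with black frames on the 21 pairs past an adjusted permutation p of 0.05. *FTL* and *HMOX1* are positive with immune, endothelial and fibroblast lists and negative with the cardiomyocyte list, while *ACO1* has the opposite sign with the last.

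**Figure D5:**
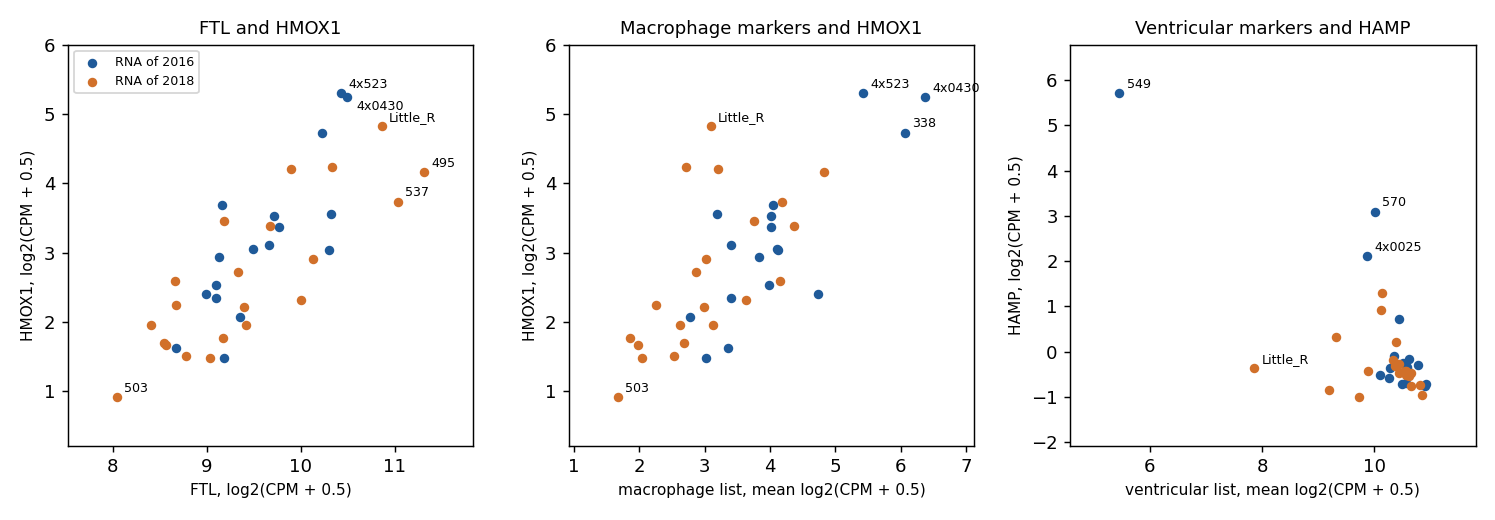
Levels in each of 38 hearts on log2 axes, blue for RNA of the earlier year and orange for RNA of 2018: *FTL* against *HMOX1* (left), the macrophage list against *HMOX1* (middle) and the ventricular list against *HAMP* (right). The first 2 panels show continuous clouds with 503 at the low end, while in the last 549 stands alone at low ventricular and high *HAMP* level.

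Genes with the most similar pattern over the animals were found for each iron gene, as the 3 named genes with the highest r after centring within extraction year, out of 14453 expressed genes. This is a description over 38 animals that share libraries. The nearest to *HMOX1* were *FERMT3* (r = 0.84), *RBM47* (0.84) and *STXBP2* (0.82). *FERMT3* encodes kindlin-3, an integrin activator of blood cells. The nearest to *FTL* were *GPSM3* (0.89), *SHKBP1* (0.89) and *RBM12* (0.89). *SLC40A1* was nearest to *LEPROT* (0.83), *MARCHF8* (0.83) and *MIGA1* (0.79). MARCHF8 is a ubiquitin ligase whose known targets include the transferrin receptor.

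For the sensors the nearest genes reached similar values. They were *DNAJA3* (0.88), *PUDP* (0.85) and *CIPC* (0.85) for *ACO1*, and *NBN* (0.87), *CUL5* (0.85) and *PEX3* (0.83) for *IREB2*. Those of *SLC11A2* were *RNF11* (0.83), *AGO1* (0.83) and *ZNF770* (0.82). *TFRC* and *FTH1* had no such close partner. The highest were 0.66 for *TFRC*, with the glycolytic enzyme gene *PGAM1*, followed by *GM2A* (0.65) and *COX7A2L* (0.64), and 0.68 for *FTH1*, with *DYNLRB1*, followed by *SOD3* (0.63) and *DKK3* (0.62). *HAMP* was nearest to *FAM83G* (0.84), *SLC5A10* (0.79) and *KCNK3* (0.79). Since *HAMP* was near the floor in most animals and high in 549, these values may rest on 549, and they were not computed without it. *FAM83G* lies inside *SLC5A10* in RefSeq's annotation of another chimpanzee assembly, so their reads may overlap. KCNK3 is a potassium channel known from the atrium. Some of these neighbours depended on the library total. With TMM library sizes *SOD3* ranked 137 for *FTH1*, *RBM12* ranked 87 for *FTL* and *PUDP* ranked 35 for *ACO1*, while the nearest gene ranked 1 to 3 for each of the 9.

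Extraction year was tested in a model with sex across all genes. Of 15790 genes tested, 16.1% passed an adjusted p of 0.05 (edgeR quasi-likelihood test, Benjamini-Hochberg), 11.2% being higher and 4.82% lower in 2018. Of the 9 iron genes, 1 passed. *HAMP* was lower in 2018 by -2.89 ± 0.76 (log2 difference ± SE, edgeR adjusted p = 0.0072). The year medians were 0.289 CPM in the earlier year and 0.243 CPM in 2018, and their ranges overlapped. The call was lost without 549 (log2 difference -0.95, edgeR adjusted p = 0.29). The other 8 had log2 differences from -0.68 (*HMOX1*) to -0.06 (*FTH1*) and adjusted p from 0.20 to 0.77 in the same test.

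Of the 48 other iron pathway genes, 45 were tested, and 3 were higher and 1 lower in 2018. *SLC25A37*, the mitoferrin gene that carries iron into mitochondria, was higher by 0.90 ± 0.18 (log2 ± SE, edgeR adjusted p = 0.00063), with medians of 26.3 CPM in the earlier year and 44.6 CPM in 2018. Its paralog *SLC25A28* was higher by 0.56 ± 0.18 (edgeR adjusted p = 0.027), with medians of 39.1 and 49.6 CPM. Without 537 and Little_R this call was lost (log2 difference 0.48, edgeR adjusted p = 0.057). *TMPRSS6*, a protease that restrains hepcidin in the liver, was higher by 2.90 ± 0.59 (edgeR adjusted p = 0.00069) at medians of 0.0296 and 0.246 CPM. *CD163*, the macrophage receptor for hemoglobin bound to haptoglobin, was lower by -1.58 ± 0.38 (edgeR adjusted p = 0.0033), with medians of 22.9 and 7.32 CPM. The median of the whole macrophage list was 4.01 in the earlier year and 2.98 in 2018 (mean log2(CPM + 0.5)). With the share of mitochondrial counts in the model, none of the 4 passed (edgeR adjusted p from 0.084 to 0.79). Calls over all genes also fell, from 2536 of 15790 to 530 of 16678, so the loss is not particular to these genes.

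RNA integrity, age and sex moved none of the 9 past the threshold. For RIN, 0 of 16462 genes passed in edgeR (0.0%), 2276 had an unadjusted p under 0.05, and DESeq2 called 168. *TFRC* had the largest slope, -0.26 ± 0.12 per RIN unit (log2 ± SE, edgeR adjusted p = 0.32). For a difference in RIN slope between extraction years no gene passed (0 of 16910, 0.0%, in edgeR, 1083 at an unadjusted p under 0.05, DESeq2 not run). For age, 0 of 16309 genes passed in 34 animals (edgeR, 0.0%), 1209 had an unadjusted p under 0.05, and DESeq2 called 5. The largest age slopes per 10 years were -0.72 ± 0.35 for *HAMP* and -0.36 ± 0.12 for *HMOX1* (log2 ± SE, edgeR adjusted p = 0.66 for each). For sex, 0.215% of 15790 genes passed, and the adjusted p of the 9 ranged from 0.70 to 0.999 in edgeR.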

How the data were processed

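The processed tables of 38 post-mortem chimpanzee hearts were used. The authors aligned reads with STAR 2.6.1b and deposited raw counts per annotated gene (Pan_tro_3.0, Ensembl annotation), raw counts on orthologous exons (featureCounts), and a normalized score matrix made from log CPM, standardized per gene and quantile normalized. The labels name the build GRCh38.p13, a human one. The library kit did not mark strand, so overlapping antisense reads cannot be separated. 52 per-sample columns that match no sample were not used, and the human table was not analysed here. Gene names came from a table of identifiers, which named 18040 of 31373 genes. No gene sequence was used, and no genome coordinate beyond the RefSeq placing of *FAM83G* inside *SLC5A10*.

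CPM was the annotated gene count over the orthologous exon total. Tests across genes used edgeR 4.0.16 (TMM, filterByExpr, quasi-likelihood) with sex and extraction year, and DESeq2 1.42.0 as an alternative. Correlations used log2(CPM + 0.5) and permutations over animals (scipy and numpy). Dispersion required 6 CPM in 1 animal and used a LOESS span of 0.75, with the SE from 1000 redraws of the animals. The edgeR fits, the dispersion fit and the permutation test of correlations were tried on simulated data. DESeq2 and the paired permutation test were not. Samples were not replicates of a condition, and p-values measure the spread between animals. Alternatives were another library total, pseudocount, filter, tool, covariate or set of animals. The alternatives without 549, and without 549, 570 and 529, were added after seeing the data. The genes named are the 9 members, the iron pathway genes past 0.05 (at most 5 per direction) and the 3 nearest genes per member. *NPPA*, *MYL2*, *HJV*, *APOA1*, *ALB* and *AHSG* were named after their values were seen. The genes and lists were chosen with earlier results of these data known.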

Additional observations from a re-analysis of the deposited data

How the results depend on the processing

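The 1 iron gene called for extraction year, *HAMP*, became 0 with DESeq2, with the Yerkes animals alone, with mitochondrial share as a covariate and without 549, and stayed 1 with RIN as a covariate, with genes of at least 1 count and without 537 and Little_R. Beyond the loss of that animal, the cause was not tested. Log2 differences that reversed were those of *FTH1* (0.016), *FTL* (0.10) and *HMOX1* (0.063) in the Yerkes animals, and of *ACO1* (0.0035) and *IREB2* (0.018) with mitochondrial share, none past the threshold. The share of genes called for extraction year ran from 2.08% to 19.7% against 16.1%, and counts of calls ran for sex from 31 to 101 against 34, for RIN from 0 to 168 and for age from 0 to 6. The pairs of iron genes past the threshold fell from 9 to 1 in the authors' normalized matrix, where *FTH1* and *FTL* reversed to r = -0.051. *FTL* with *HMOX1* passed in every alternative, with r from 0.56 to 0.84. In the other alternatives 7 to 10 pairs passed, and 18 to 30 of the 99 gene and list pairs against 21. With TMM library sizes *IREB2* passed with 6 lists against 1 and *ACO1* with 7 against 4, while *HMOX1* passed with 4 against 6. Genes with dispersion above 0 numbered 4 to 7 of 9. *ACO1* was 0.05 with the annotated gene total, and *SLC11A2* was 0.38 with that total and 0.10 with TMM. *HAMP* had no dispersion in the 2018 libraries, where it was under the filter. Low counts limit *HAMP* and *TMPRSS6*. No fit with a replicate block was possible because the animals form 1 group.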
